A study of Chlorocebus aethiops with 30 samples.

Results

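HES1 encodes a basic helix-loop-helix repressor of the Hairy and Enhancer of Split family. This report follows the RNA of that single gene, found by its symbol, which is 1 of 1237 genes that the authors listed for trypsin against TrypLE at 0 h and 1 of 340 genes for which they gave group means. The gene was chosen by its measured values in these same tables, where it has the smallest unadjusted p-value of the listed genes at 0 h. Its own levels are therefore given as a description, without a test.

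When a Notch receptor on one cell binds a Delta or Jagged ligand on its neighbour, the receptor is cut and its inner part enters the nucleus, where it joins the DNA-binding protein RBPJ and switches on genes such as HES1. The HES1 protein recruits TLE corepressors and also represses its own gene. Because its RNA and protein are both short-lived, this loop makes HES1 oscillate in mouse cells. Contact between neighbours, serum and several growth factor pathways also bear on the gene.

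Vero cells are an established epithelial line from African green monkey kidney, labelled wild type, and were grown in medium with fetal bovine serum. Control cells were detached at 37 °C with an enzyme-free solution and harvested at once. Others were detached at 37 °C with trypsin, a pancreatic protease, or with TrypLE, a recombinant protease used in its place, and were harvested directly (0 h) or put back in culture for 8 or 24 h and then lifted with the enzyme-free solution. Each group has 3 samples, which the series design calls biological replicates without saying whether they were separate cultures, so the spread between them may be technical. The 9 samples treated with cold TrypLE were not analysed here.

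Values for single libraries were analysed for 6 libraries, 3 after trypsin and 3 after TrypLE at 0 h. These held between 1656319 and 2192333 reads over the listed genes. For the control and the groups at 8 and 24 h 1 mean per group was analysed, so those levels carry no error. Of 12 epithelial and kidney markers AQP1 alone was listed, and of 13 markers of other cell types 0 were, so these markers did not check the labelled cell type. RNA came from whole cultures, in which fewer cells with HES1 RNA and less HES1 RNA per cell cannot be told apart. How long the cells stood in each enzyme is not given in the sources used here.

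Directly after detachment HES1 RNA was lower in every trypsin library than in any TrypLE library. The gene spans 2731 bases on the plus strand, of which 1712 are counted as gene length in the authors' tables. The values are normalized counts, that is reads divided by a size factor for each library. After trypsin the normalized counts were 793.8, 613.3 and 689.4 in replicates 1, 2 and 3. For TrypLE they were 2009, 2391 and 2322. The groups did not overlap, as was so for 75.6% of the listed genes, and the lowest TrypLE library stood 2.53-fold above the highest trypsin library.

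The group means were 699 ± 90.6 with trypsin against 2241 ± 204 with TrypLE (SD, n = 3 each), so that the TrypLE mean was 3.21-fold higher. In the authors' deposited table this is a log2 fold change of -1.68, trypsin over TrypLE. Trypsin replicate 2 was the lowest library and trypsin replicate 1 the highest of its group, while in the TrypLE group replicate 1 was the lowest. The reads behind these values ran from 601 to 812 after trypsin and from 2061 to 2609 after TrypLE. Counting error alone would give a coefficient of variation of 3.81% after trypsin and 2.08% after TrypLE, against 13.0% and 9.10% observed, so that most of the spread between libraries lies beyond counting error. The exact Poisson 95% interval of the highest trypsin library ends at 850.3 and that of the lowest TrypLE library begins at 1923, and these intervals cover counting error only.

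**Figure D1:**
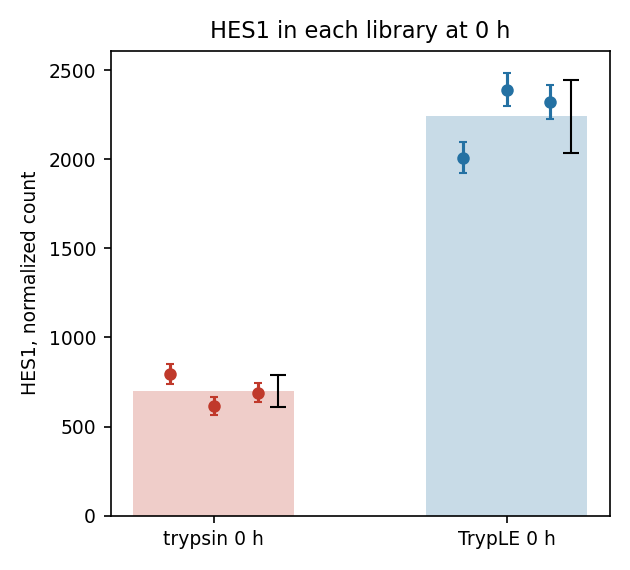
HES1 normalized count in each of the 6 libraries at 0 h. Points are libraries with exact Poisson 95% intervals, bars are group means and black error bars are the SD of 3 libraries; the TrypLE libraries sit between 2009 and 2391 and the trypsin libraries between 613.3 and 793.8.

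Ratios to other genes within 1 library do not depend on the size factors. Per base of gene length, HES1 stood at 12.1%, 10.5% and 12.0% of DUSP1 with trypsin, against 14.2%, 15.5% and 14.9% with TrypLE. DUSP1 is a phosphatase that switches off MAP kinases and was itself lower after trypsin. Against BHLHE40, a repressor related to HES1 by its helix-loop-helix and Orange domains, the same ratio was 30.4%, 22.5% and 25.5% after trypsin and 64.9%, 69.5% and 66.5% after TrypLE. In both ratios the groups did not overlap, so HES1 differed more between the enzymes than either of these genes did.

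Among the listed genes HES1 combined a large fold with a high count. A more negative log2 fold change was listed for 73 genes, of which 64 had a mean under 50 normalized counts over the 6 libraries. The other 9 genes were 230 to 855 bases long, all shorter than HES1, and 1 of them, the ribosomal protein gene RPS27, was also as abundant as HES1. Listed short genes tended to be lower after trypsin, so HES1 was set against genes of its own length. Among 219 other listed genes within 1.5-fold of its length and with a mean of at least 50, the median log2 fold change was -0.37, the middle of the distribution ran from -0.51 to -0.27 (quartiles), and 0 were more negative than HES1. The median of all listed genes was -0.29, and HES1 minus that median gave -1.39.

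**Figure D2:**
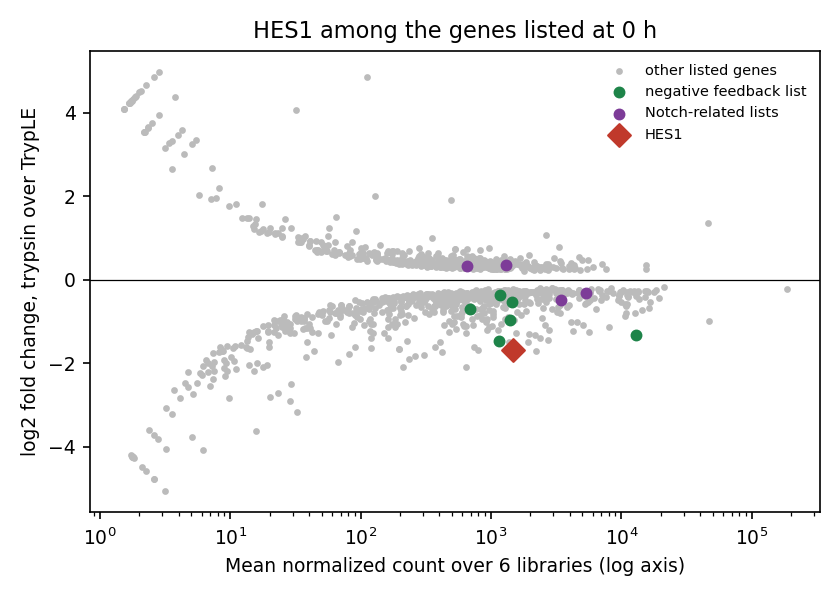
Log2 fold change of trypsin over TrypLE in the authors' deposited table against mean normalized count (log axis) for the 1237 listed genes. HES1 (diamond, -1.68) lies below the members of the negative feedback list (green) and of the Notch-related lists (purple); the empty band around 0 arises because genes above an unadjusted p of 0.05 are left out of the table.

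Just around HES1 in the order of folds, by a fixed rule of 4 genes with a symbol on each side, the authors' deposited table gives UQCRH (-1.84), EXOC3L4 (-1.75), ADGRG3 (-1.70) and RPS27 (-1.70) on the more negative side and RPS29 (-1.67), NR4A1 (-1.66), RPL38 (-1.498) and RPL37 (-1.49) on the other. RPS27 held 5641, 2374 and 2148 normalized counts in the TrypLE replicates 1, 2 and 3, and UQCRH, a respiratory chain subunit, 625.7, 308.9 and 284.7. In both of these short genes replicate 1 stood far above the others, whereas for HES1 it was the lowest of the TrypLE group. EXOC3L4 and ADGRG3 had means of 11.4 and 13.2 normalized counts after TrypLE, far below the level of HES1. NR4A1, an orphan nuclear receptor of the early response, had 113.4, 99.0 and 73.1 normalized counts with trypsin, against 255.3, 311.6 and 335.4 with TrypLE. Its fold was like that of HES1 at a far lower count.

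The next question is how far the rest of the Notch pathway moved with HES1. Across 118 other genes on 9 lists of ligands, receptors, processing enzymes, nuclear partners, targets, family members, corepressors, HES1 partners and the BMP and Hedgehog readouts, 4 were listed and 1, lower after trypsin, had an adjusted p under 0.05 by the authors' deposited table. Over all 15194 genes in the authors' adjustment 1.65% passed, 1.42% on the lower side and 0.23% on the higher side. The share on these lists was no larger, but the 2 shares are not on equal terms. The 118 are symbols, of which some may not have been tested and 14 are BMP and Hedgehog readouts. With 1 gene passing, the lists do not measure how far the pathway moved. The 7 ligand genes and the 5 receptor genes were not listed, which means that their unadjusted p was not below 0.05 or that no gene of that symbol was tested. The same holds for all 8 TLE corepressor symbols and for all 22 partners and repressed targets.

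MYC, a growth-promoting transcription factor and a Notch target in some cells, was the gene that passed. The trypsin libraries held 2788, 2960 and 2757 normalized counts of it, against 3490, 4242 and 4222 with TrypLE. The groups did not overlap, but the difference was much smaller than that of HES1, with -0.49 on the log2 scale and 0.00169 as the adjusted p given by the authors' deposited table. DESeq2 on the recovered reads also called MYC (adjusted p = 0.0128), as it did 15.8% of the listed genes. The edgeR refit called 13.7% of the listed genes and none of the 4 genes on these lists, although all 4 had an unadjusted p below 0.05. Its adjusted p for MYC was 0.0984. MYC is on the immediate early list as well.

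Of the processing enzymes only MFNG was listed, a fringe enzyme that adds sugars to Notch receptors and so tunes which ligand they answer. Its normalized count was 730 ± 89.7 with trypsin against 582 ± 62.3 with TrypLE (SD, 3 libraries each), and the log2 difference of 0.33 did not pass (adjusted p = 0.489, authors' deposited table). TBL1XR1, a subunit of the NCoR corepressor complex, was at 1470 ± 145 against 1151 ± 113, and its log2 difference of 0.35 did not pass either (adjusted p = 0.197, authors' deposited table). Both values were higher after trypsin, the side opposite to HES1, but their size depended on the processing. With a trend on gene length removed, edgeR gave 0.19 for MFNG and 0.05 for TBL1XR1. With TMM scaling factors it gave 0.50 and 0.53.

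Within its own family HES1 stood alone in the list apart from BHLHE40, the DEC1 repressor, since 11 of the 12 other HES, HEY and BHLHE genes were not listed. BHLHE40 was at 4768 ± 110 normalized counts with trypsin against 5951 ± 386 with TrypLE (SD, 3 libraries each), and its log2 difference of -0.32 did not pass (adjusted p = 0.0784, authors' deposited table). By the authors' domain annotation 2 more helix-loop-helix genes were listed. In the authors' deposited table neither passed, with a log2 value of 0.49 for CLOCK, an activator of the circadian loop (adjusted p = 0.133), and of -0.23 for TFE3, a lysosomal regulator (adjusted p = 0.612).

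In the authors' deposited pathway table HES1 is counted in 6 pathways. For Notch signaling the table gives 3 listed genes of 62 in the background and an adjusted p that rounds to 1. The others besides HES1 are MFNG and a histone deacetylase 1-like locus whose mean was 3.06 normalized counts after trypsin and which was listed at 0 after TrypLE. The smallest p-value of the 6 belonged to the Fanconi anemia pathway, with 8 listed genes of 59 and an adjusted p of 0.726. There HES1 was the 1 gene lower after trypsin, while the other 7, which include BRCA1, BRCA2 and ATR of DNA repair, had log2 fold changes of 0.31 to 0.47 that did not pass. The term therefore joins HES1 to genes whose listed folds were on the opposite side but small. For ATR, BRCA2, ERCC4 and REV3L the libraries overlapped between the groups. All 7 genes were longer than HES1, at 5145 to 13300 bases, and a length effect on their folds was not tested.

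HES1, which represses its own gene, was also set beside other negative feedback genes, whose products limit their own induction. Of 21 such genes other than HES1, 6 were listed, against 1237 of all 15194 genes. All 6 were lower after trypsin, and 5 passed in the authors' deposited table (1.42% of all genes passed on that side). The list was drawn up with earlier results of these data known. The median log2 fold change of these 6 was -0.83, against -0.29 for all listed genes, and 0 of them were more negative than HES1. Lower values were common among all listed genes, so the shared direction alone does not set these genes apart. SPRY2, an inhibitor of receptor tyrosine kinase signalling, was at 968, 981 and 915 normalized counts with trypsin, against 1899, 1816 and 1851 with TrypLE. These libraries were close within each group and far apart between the groups (log2 difference of -0.96 in the authors' deposited table, where the adjusted p was 1.46e-15). DUSP5 and DUSP6, phosphatases of ERK, had log2 fold changes of -1.47 and -0.70 there, and DUSP1 one of -1.31. NFKBIA, which holds NF-kappaB in the cytoplasm, was at 1016 ± 115 against 1312 ± 45.5 and did not pass (adjusted p = 0.129, authors' deposited table). TNFAIP3, a further brake on NF-kappaB, passed in the authors' deposited table (adjusted p = 0.00374) and in DESeq2 (adjusted p = 0.0199). In edgeR it did not pass with the authors' size factors (adjusted p = 0.0831) and passed with the length trend removed (adjusted p = 0.00256).

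The group means set these levels against the control, on a scale per length that matches FPKM. HES1 stood at 438 in cells detached without enzyme. After trypsin it was 25.9 at 0 h, 73.8 at 8 h and 253 at 24 h. After TrypLE it was 83.3 at 0 h, 35.9 at 8 h and 379 at 24 h. Every enzyme group thus lay below the control, by 16.9-fold for trypsin at 0 h and by 1.16-fold for TrypLE at 24 h. The means are the authors' own, and the spread is known for the 0 h groups alone. Symbols for the genes with group means were taken from the 0 h list, which holds 206 of the 340. The other 134 could not be named here or matched to a gene list.

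Set on the same scale by the ratio found over 206 shared genes, the trypsin libraries at 0 h held 29.4, 22.7 and 25.6 and the TrypLE libraries 74.6, 88.8 and 86.3. The control mean was 4.93-fold above the highest of these 6 libraries and 19.3-fold above the lowest. Whether it exceeds them beyond its own spread was not tested, since the spread of the control samples was not analysed here. At 0 h HES1 was thus at 5.92% of the control after trypsin and at 19.0% after TrypLE.

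**Figure D3:**
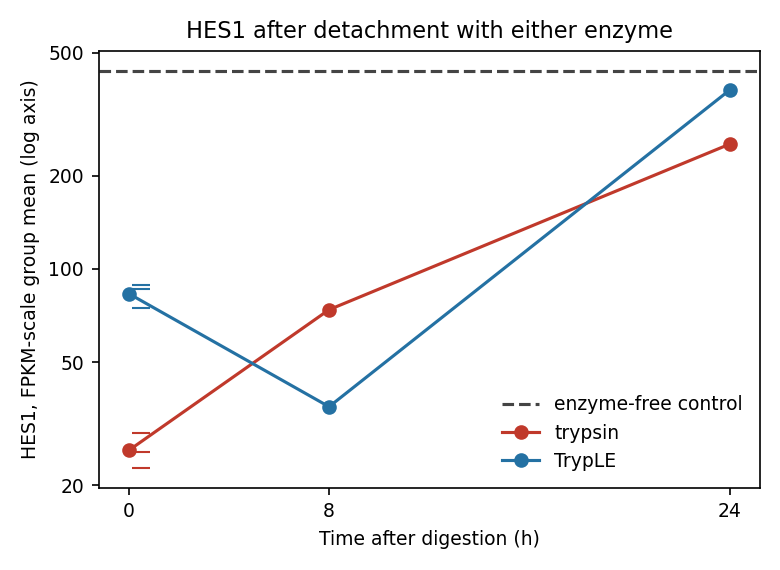
HES1 group means on the FPKM scale (log axis) against time after digestion for trypsin and TrypLE, with the enzyme-free control as a dashed line at 438. Short ticks beside 0 h are the single libraries; the trypsin line goes upward from 25.9 to 253, whereas the TrypLE line dips to 35.9 at 8 h before reaching 379.

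Among the 340 genes with group means, which the authors selected, no other gene was further below the control at 0 h after trypsin (log2 difference of -4.08) or at 8 h after TrypLE (-3.61). At least 2-fold below the control were 14.7% of these genes for trypsin at 0 h and 13.8% for TrypLE at 8 h. In trypsin at 8 h (-2.57) and in TrypLE at 0 h (-2.39) HES1 was at place 5 from the lowest, where 12.1% and 8.82% of the genes were at least 2-fold below the control. At 24 h it was at place 54 from the lowest after trypsin (-0.79, against a median of 0.00) and at place 154 after TrypLE (-0.21, against a median of -0.15). The median of all 340 genes was itself lower at 0 h after trypsin, by a log2 difference of -0.50, and relative to it HES1 stood at -3.58. In the other groups that median lay between -0.15 and 0.07.

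The same course appears in the order of levels within the table. In the control HES1 was at place 16 of 340 from the top, at 0 h after trypsin at place 157 and at 8 h after TrypLE at place 136. At 24 h it was back at place 37 after trypsin and place 17 after TrypLE. Its highest mean was 16.9-fold its lowest, a log2 range of 4.08 that was the fourth widest of the 340 genes, whose median range was 1.19.

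The enzymes differed in the course of HES1 during regrowth. After trypsin the 8 h mean was 2.85-fold the 0 h mean, and the 24 h mean was 3.43-fold the 8 h mean. Over the whole span this is a ratio of 9.78, the highest of the 340 genes. After TrypLE the 8 h mean was 2.32-fold below the 0 h mean, and the 24 h mean was 10.6-fold the 8 h mean, a ratio exceeded by 2 genes. As a result, HES1 after trypsin was 3.21-fold below TrypLE at 0 h, 2.06-fold above it at 8 h and 1.496-fold below it at 24 h. At least 2-fold lower at 0 h were 16.5% of the genes, and at least 2-fold higher at 8 h 3.53%. The differences at 8 and 24 h rest on 1 mean per group and were not tested.

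In the order of all 7 means, control came first, followed by TrypLE at 24 h, trypsin at 24 h, TrypLE at 0 h, trypsin at 8 h, TrypLE at 8 h and trypsin at 0 h. The trypsin mean at 8 h, 73.8, lay just under the lowest TrypLE library at 0 h, 74.6, and their order cannot be told from a mean without error. The TrypLE mean at 8 h, 35.9, lay above the highest trypsin library at 0 h, 29.4.

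At least 2-fold lower at 0 h and at least 2-fold higher at 8 h, trypsin over TrypLE, were 5 of the 340 genes (1.47%). These are HES1, ATF3, DUSP5 and 2 loci without a gene symbol, a set chosen after its values were seen. At any size the switch from lower to higher was common, at 41.5% of the genes.

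Other feedback genes shared parts of this course. The plain difference was at 0 h after TrypLE, where HES1 lay far below the control while DUSP1 stood at 560 against 373 in the control, DUSP5 at 42.2 against 28.7 and SPRY2 at 33.6 against 15.03. DUSP6 (18.8 against 38.5) and NFKBIA (38.0 against 46.3) were below the control there. Only feedback genes that were also listed at 0 h could be found among the group means, and these were 5. Of them, 0 were as far below the control as HES1 in the 4 groups at 0 and 8 h. At 24 h after trypsin all 5 were further below it than HES1 and 4 were at least 2-fold below (11.5% of all 340 genes). At that time DUSP6 was at 11.1 and DUSP1 at 127.

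Immediate early genes, which answer outside signals within minutes, were set beside HES1 in the same way. This list too was drawn up with earlier results of these data known. It shares DUSP1, DUSP5 and DUSP6 with the feedback list, so the 2 comparisons are not separate. At 0 h, 22 of 39 were listed, against 1237 of all 15194 genes. All 22 were lower after trypsin and 15 passed in the authors' deposited table, against 1.42% of all genes on that side. The median log2 fold change of the 22 was -0.69, against -0.29 for all listed genes, among which lower values were common as well. The 1 gene more negative than HES1 was NR4A3, which was not among the 15. It was close to the floor, with means of 0.69 normalized counts after trypsin and 11.7 after TrypLE. Of the 22 listed genes, 17 had group means, and members outside the 0 h list could not be found there. At 0 h after TrypLE, 5 of the 17 were at least 2-fold above the control and 1 was at least 2-fold below it, against 4.71% and 8.82% of all 340 genes. EGR1, a zinc finger factor of this class, stood at 59.0 in the control, at 160 at 0 h and 5.78 at 8 h after TrypLE, and at 124 and 21.0 at these times after trypsin. Its level at 0 h was thus above the control after either enzyme, where HES1 was far below. None of the 17 was as far below the control as HES1 in any of the 4 groups at 0 and 8 h.

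Genes with a profile most like that of HES1 over the 7 means were ranked by the root mean square difference of their centred log2 values. The closest of all 339 was ATF3, a stress-responsive transcription factor, with a difference of 0.83 against a median of 1.43. ATF3 stood at 70.2 in the control, at 20.8, 25.7 and 43.0 after trypsin at 0, 8 and 24 h, and at 48.3, 11.9 and 75.9 after TrypLE. Like HES1, it was lowest at 0 h after trypsin and at 8 h after TrypLE among the times of each enzyme. Unlike HES1, its lowest mean of all was that at 8 h after TrypLE, and at 24 h after TrypLE it lay above the control. At 0 h after TrypLE it was less far below the control than HES1, by a log2 difference of -0.54 against -2.39. At 0 h, HES1 per length was 142%, 108% and 125% of ATF3 with trypsin, against 150%, 188% and 180% with TrypLE.

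The next named genes were CEBPB, DDIT3, SYNE2, DUSP5, BHLHE40, DUSP6 and PPP1R15A, with differences of 1.14 to 1.22, not far below the median. Pearson's r with HES1 was 0.59 to 0.71 for CEBPB, DDIT3, SYNE2, DUSP5 and DUSP6. It was 0.79 for BHLHE40 and 0.87 for PPP1R15A. CEBPB, a leucine zipper factor, stood at 106 in the control and, like HES1, was lowest at 8 h among the TrypLE times (39.2). After trypsin its low point was also at 8 h (36.9), whereas that of HES1 was at 0 h, when CEBPB was at 89.9. DDIT3, the stress factor CHOP, was low from 0 h (14.8 after trypsin, 25.5 after TrypLE, 66.4 in the control) and was still at 18.3 and 21.9 at 24 h, when HES1 was at 57.9% and 86.5% of the control. BHLHE40, at 172 in the control, was also lowest at 0 h among the trypsin times (99.3) and at 8 h among the TrypLE times (69.6). Unlike HES1, BHLHE40 had a higher trypsin mean at 8 h (123) than at 24 h (109). Its lowest mean of all, like that of ATF3, was at 8 h after TrypLE. PPP1R15A, which returns translation after stress, had 65.7 in the control and 34.0 and 34.8 at the same low points. Of the 15 closest genes 10 could not be named here, since symbols were known only for genes also listed at 0 h. The named genes are thus not a full account of the closest ones. All profiles come from 1 table with a shared control, so likeness here is a description over 7 means.

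**Figure D4:**
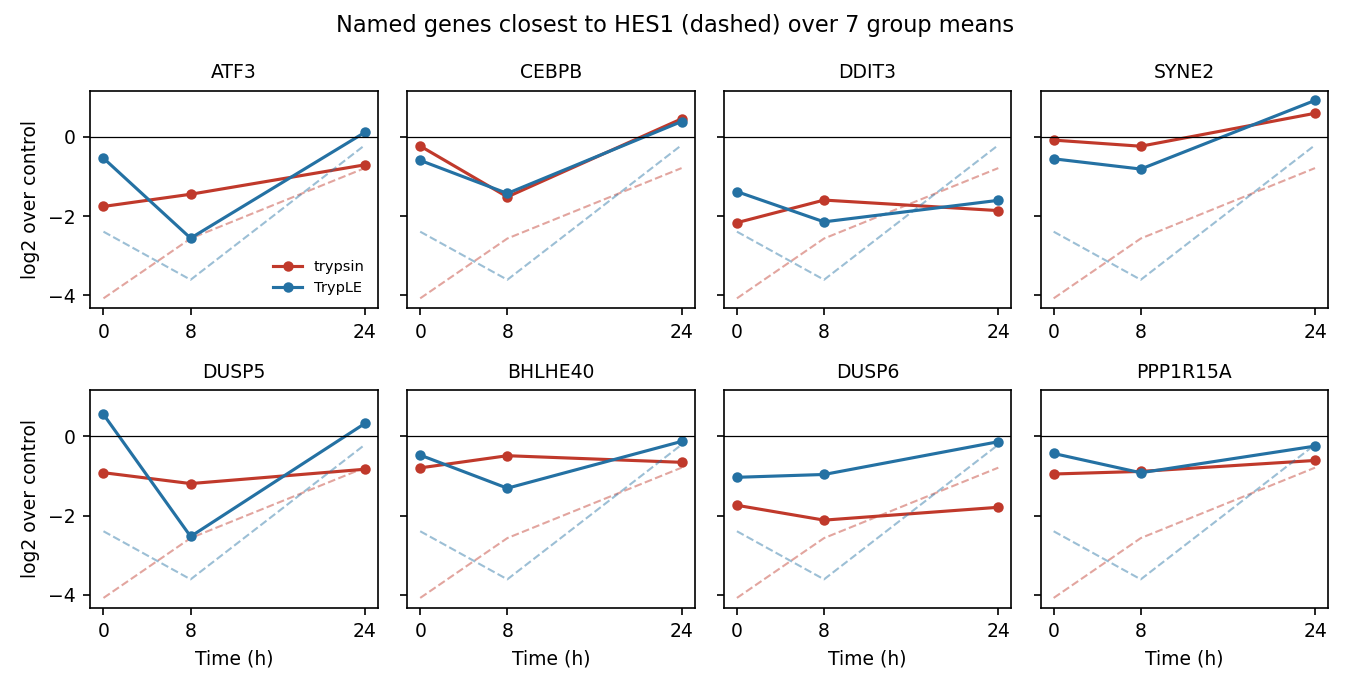
Log2 difference of each group mean from the control for the 8 named genes closest to HES1, against time after trypsin (red) and TrypLE (blue), with HES1 as dashed lines in each panel. ATF3 follows the order of HES1 between the enzymes at each time with a smaller depth. It was at -1.76 against -4.08 for HES1 at 0 h after trypsin, and at -2.56 against -3.61 at 8 h after TrypLE. DUSP6 after trypsin and DDIT3 after both enzymes stay low at 24 h.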

How the data were processed

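RNA sequencing of 30 samples in 10 groups was used. The submitters' processing notes name HISAT2 2.0.5 and featureCounts 1.5.0-p3. Build, annotation and the authors' differential test: not given in the sources used here, and scaffold positions are left out. The deposited library columns hold a signal, read counts divided by a size factor, of 1237 genes with an unadjusted p below 0.05. All values were whole multiples of 1 step within 0.01 reads (100% in each of 6 libraries), which gave back whole reads; in TrypLE replicate 1 fewer low values bear on this. The log2 fold changes, p-values and adjusted p-values are the authors' deposited ones, adjusted over 15194 genes; 101 listed genes with low counts carry an adjusted p of exactly 1. The authors deposited group means that their header gives no unit for, and these were taken as FPKM-scale values, normalized by gene length and depth, because they equal normalized count per kilobase divided by 15.8 after trypsin and 15.7 after TrypLE. Numbers of listed genes per pathway and their p-values are the authors' deposited ones.

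Since the tables hold selected genes, the authors' values are the main result. Refits on the listed genes used edgeR 4.0.16 (quasi-likelihood) and DESeq2 1.42.0 in R 4.3.3, adjusted by Benjamini-Hochberg over 15194 genes. Other steps used Python 3.11.15, pandas 2.3.3 and scipy 1.17.1. Likeness used log2(value + 1), and genes with group means were named only where the 0 h list gave a symbol. HES1, the gene lists and the rule for named genes (HES1, passing list members, the 8 closest profiles with a symbol, 4 neighbours by fold on each side) were chosen with earlier results of these data known. Alternatives were other scalings, filters, estimates, pseudocounts, a length correction, a replicate block and leaving out each library. The tables used here hold no HES1 sequence, and none is shown.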

Additional observations from a re-analysis of the deposited data

How the results depend on the processing

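The log2 fold change of HES1 at 0 h, trypsin over TrypLE, kept its direction under every alternative run. It was -1.68 with edgeR and with DESeq2 at the authors' size factors, -1.52 with TMM factors and -1.49 with median-ratio factors, and -1.78 to -1.59 when 1 library was left out. With a trend on gene length removed it was -1.38. The TMM, median-ratio and length-trend scalings were computed from the listed genes alone, which were selected for a difference. They centre these genes, so an upward move of the median is built in. The median of the fitted genes went from -0.29 to -0.13 with TMM factors, -0.09 with median-ratio factors and 0.02 with the length trend removed. Relative to that median HES1 lay at -1.39, -1.39, -1.39 and -1.40. Group means ran from 651 to 742 after trypsin and from 2165 to 2357 after TrypLE when 1 library was left out. Of the Notch-related genes edgeR called 0 with each scaling, without the low count filter, with the length trend removed, with the replicate block and in all 6 refits without 1 library (0 to 0), while 4 had an unadjusted p below 0.05 with the authors' size factors and DESeq2 called 1. Of the negative feedback genes edgeR called 4, and 3 with TMM factors, 3 with median-ratio factors and 3 to 4 without 1 library, the lower value without TrypLE replicate 2, but 5 with the length trend removed, as did DESeq2, against 5 in the authors' deposited table. The fits of the feedback genes were added after seeing the data. Over all listed genes the edgeR fits called 59 with the length trend removed, 95 without TrypLE replicate 1 and at most 217, reached without trypsin replicate 1, against 170 with the authors' size factors and the authors' own 251. Samples of the same number did not deviate together (correlations of -0.005, 0.072 and -0.047 over 1024 genes). They share only a number, and with the replicate block HES1 was at -1.68 and edgeR called 167 listed genes, 0 of the Notch-related genes and 4 of the feedback genes. Relative to the median of the 340 genes, which was chosen after seeing the data, HES1 at 0 h after trypsin was at -3.58 from the control in place of -4.08. Ranking likeness by Pearson's r kept 4 of the 8 named genes (ATF3, PPP1R15A, BHLHE40 and SYNE2). A pseudocount of 1 or 0.1 moved no group mean by more than the spread between libraries at 0 h. The lack of replicate values at 8 and 24 h and in the control limits every statement on those groups.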

Other observations

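Some genes ran opposite to HES1 over the 7 group means. A symbol was known for 149 of these genes, all of them also listed at 0 h. Among these 149, the strongest negative Pearson's r over the 7 means belonged to HPS6 (-0.89) and IL6 (-0.84), both chosen after their values were seen. IL6, an inflammatory cytokine, stood at 12.5 in the control on the FPKM scale. After trypsin it was 47.7, 26.8 and 8.92 at 0, 8 and 24 h, and after TrypLE 59.7, 32.8 and 12.1. IL6 was thus highest directly after detachment, when HES1 was far below the control. At 24 h IL6 was near its control level after TrypLE and below it after trypsin, where HES1 was below its control level as well. Not every step ran opposite. Both genes fell from 0 to 8 h after TrypLE, and both were lower after trypsin than after TrypLE at 0 h and at 24 h. HPS6, a subunit of a complex that builds lysosome-related organelles, stood at 9.23 in the control and was highest at 8 h, with 15.1 after trypsin and 17.8 after TrypLE. These means carry no error, and the differences were not tested.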
